A study of Homo sapiens with 8 samples.

Results

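The 10 genes described here encode chaperones that work outside the endoplasmic reticulum (ER). They were HSPA8, HSP90AA1, HSP90AB1, HSPH1, DNAJB1, DNAJA1, HSPA4 and HSPB1 of the cytosol and HSPD1 and HSPE1 of mitochondria, chosen by name as a contrast to the chaperones of the ER. All 10 were found by NCBI Gene ID among the 18555 rows of the count table, and all 10 passed the filter on low counts among the 14337 genes tested. RNA-seq was carried out on cells that the labels call HepG2, the name of an established line from a human liver tumour. Cells were transfected with Allstar control siRNA (siNC, 3 libraries) or with XBP1-specific siRNA (siXBP1, 3 libraries), and after 2 days every culture received thapsigargin at 30 nM for 3 hours. This drug empties the calcium store of the ER, and the unfolded protein response follows. No library without thapsigargin was compared, so the values concern lowered XBP1 transcript under ER stress and not the effect of the drug. Nothing in the labels says that replicates are separate cultures, so the spread on which the p-values rest is that of these samples and may be technical. In such bulk samples, fewer cells of a type and less RNA per cell cannot be told apart.

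Cells keep separate chaperone systems in each compartment. In the cytosol, HSP70 proteins such as HSPA8 bind unfolded segments with the help of J-domain proteins (DNAJA1, DNAJB1) and of nucleotide exchange factors of the HSP110 family (HSPH1, HSPA4), and pass many clients on to HSP90 (HSP90AA1, HSP90AB1). In the mitochondrial matrix, HSPD1 (HSP60) and its lid HSPE1 (HSP10) form a folding chamber. Transcription of many of these genes is raised by HSF1, which binds inverted repeats of GAA, whereas ER chaperones are raised by ATF6 and by XBP1s, the spliced and active form of XBP1.

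Promoter sequences are shown because both elements are short enough to be read in them. RefSeq windows of 300 bases on GRCh38.p14, from 250 bases before to 50 after a start site, were available for all 10 genes, 16 windows in all because 4 genes have more than 1 start site. A pair of inverted units, GAANNTTC or TTCNNGAA (each its own reverse complement, so that both strands were covered), was present in windows of 7 genes and in 8 of the 16 windows. Among all 35116 windows of this length, 13.5% held such a pair. A run of 3 alternating units, which contains the pair, was present in 5 of the 16 windows, those of HSPA8, HSP90AA1, HSP90AB1, DNAJA1 and HSPD1, against 0.49% of all windows. The ERSE, an element of ER chaperone promoters that ends in CCACG, was in 0 of the 16 windows and in 0.0769% of all windows, and TGACGTGG or its reverse complement CCACGTCA, a core bound by XBP1s, was in 0 of 16 against 0.729%. In contrast, the window of HSPA5, the ER member of the HSP70 family, held 1 ERSE at position -66 from the start site, and that of HSP90B1, the ER member of the HSP90 family, held 2. The window of DNAJB9, a J-domain protein of the ER, held no ERSE. None of these ER windows held TGACGTGG or CCACGTCA. The short letters CCACG or CGTGG, which are also part of the ERSE, occurred in 9 of the 16 windows and in 38.1% of all windows. ACGTG or CACGT, which overlaps the core bound by XBP1s, occurred in 5 of the 16 and in 21.4% of all. These are matches of letters, and binding was not measured in the data used here. The 5 windows with 3 alternating units and that of HSPA5 are printed 5′ to 3′ on the gene's strand, with the GAANNTTC and TTCNNGAA matches in capitals for the heat shock protein genes and the ERSE in capitals for HSPA5. Each is given with its position on GRCh38.p14.
HSPA8, chr11:123062087-123062386, minus strand: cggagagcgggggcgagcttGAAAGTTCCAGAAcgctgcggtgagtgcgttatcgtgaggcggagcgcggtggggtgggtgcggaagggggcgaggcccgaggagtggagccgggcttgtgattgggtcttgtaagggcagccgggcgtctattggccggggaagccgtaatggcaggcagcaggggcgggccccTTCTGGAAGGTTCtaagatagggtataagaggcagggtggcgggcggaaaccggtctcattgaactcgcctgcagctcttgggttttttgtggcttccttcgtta
HSP90AA1, chr14:102086995-102087294, minus strand: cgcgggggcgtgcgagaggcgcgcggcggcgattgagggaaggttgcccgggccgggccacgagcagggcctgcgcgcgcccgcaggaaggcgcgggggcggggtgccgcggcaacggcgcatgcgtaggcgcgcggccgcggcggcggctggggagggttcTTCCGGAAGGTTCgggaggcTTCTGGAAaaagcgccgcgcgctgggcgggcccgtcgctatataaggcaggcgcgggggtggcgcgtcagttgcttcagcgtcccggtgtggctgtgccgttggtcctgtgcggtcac
HSP90AB1, chr6:44247693-44247992, plus strand: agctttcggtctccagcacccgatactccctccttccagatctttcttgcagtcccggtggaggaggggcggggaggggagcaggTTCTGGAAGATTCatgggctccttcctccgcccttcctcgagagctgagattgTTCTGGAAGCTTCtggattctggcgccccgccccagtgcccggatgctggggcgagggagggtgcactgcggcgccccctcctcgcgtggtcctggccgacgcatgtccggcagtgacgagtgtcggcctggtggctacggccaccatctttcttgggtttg
DNAJA1, chr9:33025023-33025322, plus strand: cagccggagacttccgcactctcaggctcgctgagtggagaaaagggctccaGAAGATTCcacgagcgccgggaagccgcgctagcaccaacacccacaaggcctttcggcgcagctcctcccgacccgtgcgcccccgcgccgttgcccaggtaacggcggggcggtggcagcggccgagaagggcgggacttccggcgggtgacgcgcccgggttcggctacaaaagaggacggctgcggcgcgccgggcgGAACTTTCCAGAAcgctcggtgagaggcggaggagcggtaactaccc
HSPD1, chr2:197499791-197500090, minus strand: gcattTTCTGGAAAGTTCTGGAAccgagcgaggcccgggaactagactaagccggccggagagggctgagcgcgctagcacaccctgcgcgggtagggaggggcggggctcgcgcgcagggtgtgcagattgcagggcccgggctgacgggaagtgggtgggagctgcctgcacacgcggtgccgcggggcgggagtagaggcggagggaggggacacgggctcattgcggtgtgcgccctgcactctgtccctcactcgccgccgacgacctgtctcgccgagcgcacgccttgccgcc
HSPA5, chr9:125241294-125241593, minus strand: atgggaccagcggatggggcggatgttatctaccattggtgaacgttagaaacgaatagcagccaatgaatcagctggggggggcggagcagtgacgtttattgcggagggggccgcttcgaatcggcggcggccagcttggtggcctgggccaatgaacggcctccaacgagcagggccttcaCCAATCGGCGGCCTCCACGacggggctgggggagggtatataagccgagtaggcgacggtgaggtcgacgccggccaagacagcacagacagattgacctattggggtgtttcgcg
In HSPA8 the 3 units began at positions -230 and -55, and in HSP90AB1 at -165 and -112 from the innermost of its 3 start sites. In HSP90AA1 they began at -88 from the downstream of its 2 start sites, and the window of the upstream site held no pair. In DNAJA1 they began at 4, just inside the transcribed part. In HSPD1 they began at -245 and -240 of the downstream start site. HSPD1 and HSPE1 lie head to head on chromosome 2, with their annotated starts 105 bases apart. The window around the start of HSPE1 held no such pair, nor did those of HSPH1 and HSPA4 and that of the upstream start site of HSPD1. The HSPE1 window begins at 197500129 and does not reach the printed HSPD1 window, which ends at 197500090.

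The libraries held 38209972 to 38890070 counts, and levels are given in CPM, the counts of a gene per 1000000 counts of its library. The siRNA target XBP1 had 552, 502 and 500 CPM in siNC and 290.0, 299 and 276 CPM in siXBP1, a mean of 55.7% of that in siNC (log2 fold change -0.84, SE 0.08, edgeR adjusted p = 0.0331). The call was lost when any of 4 of the libraries was left out. XBP1 was the only gene called, 0.00697% of those tested, with 0 genes higher. The cells' label was checked against hepatocyte markers. AFP reached at most 0.155 CPM and the fibrinogen gene FGA at most 0.157 CPM in any library, so the cells are called by their label only. Of 9 markers of other epithelial lines, KRT7 (1473 CPM) and KRT17 (3364 CPM) made up nearly all of a sum of 4270.3 to 5692.8 CPM in siNC and 4177.9 to 5302.2 CPM in siXBP1, and the others averaged at most 8.78 CPM. Of 8 fibroblast markers, LUM (136 CPM) and COL3A1 (129 CPM) had the highest means. COL1A1 averaged 41.9 and DCN 29.1 CPM, and PDGFRB, FAP, THY1 and COL1A2 at most 5.57 CPM. The sum over the 8 markers was 324.5 to 342.0 CPM in siNC and 348.0 to 355.0 CPM in siXBP1. What part such differences have in the levels of the heat shock protein genes was not tested. The libraries differed most along a first principal component with 60.6% of the variance, with scores from 0.641 for siNC replicate 1 to -0.649 for siXBP1 replicate 3. Selected estimates are also given without these 2 libraries (2 against 2) or with the component as a covariate. In the 2 against 2 libraries, siNC scored -0.289 and -0.0846 and siXBP1 0.240 and 0.141 on the component. That fit therefore cannot tell the group from the component.

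None of the 10 heat shock protein genes was called as changed in siXBP1. There were 6 lower and 4 higher estimates, and the median log2 fold change was -0.05, beside 47.2% lower, 52.8% higher and a median of 0.0096 over all genes tested. At an unadjusted p under 0.05, edgeR gave 0 of the 10, where 3.61% of all genes passed (1.9% higher and 1.7% lower). DESeq2 also called 0 of the 10 and 0.105% of all genes (0.0419% higher and 0.0628% lower). The smallest unadjusted p was 0.114, for HSPE1, and the edgeR adjusted p was 0.9998 for each of the 10. The groups did not overlap for 1 gene, HSPD1, which was lower in all 3 siXBP1 libraries, where 8.75% of all genes did not overlap (5.01% higher and 3.74% lower). The 95% intervals of the 10 log2 fold changes lay within 0.65 of 0, a 1.57-fold change, and within 0.42 with HSPB1 left aside. Changes of 2-fold were therefore outside the interval of every one of the 10. Together the 10 genes took 0.569%, 0.619% and 0.589% of all counts in siNC and 0.560%, 0.580% and 0.575% in siXBP1.

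**Figure D1:**
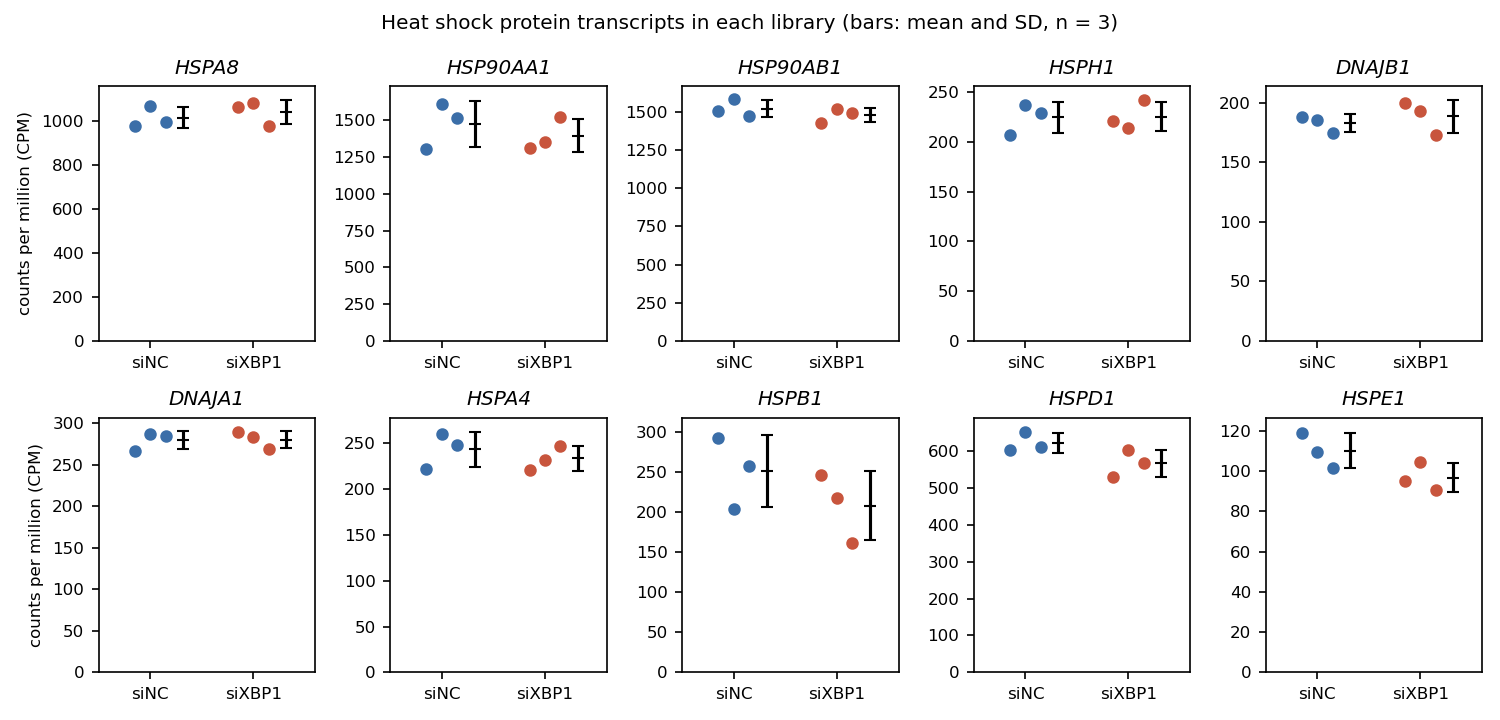
Level of each heat shock protein gene in CPM (vertical axis, from 0) in the 3 siNC (blue) and 3 siXBP1 (red) libraries, with points in replicate order and black bars for mean and SD. The groups overlap for every gene but HSPD1.

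Levels in CPM are not scaled to transcript length and are compared between libraries and not between genes. HSPA8 (gene ID 3312, chromosome 11, 123057489 to 123062462), the constitutive HSP70 of the cytosol, had 978, 1068 and 996 CPM in siNC and 1063, 1083 and 978 CPM in siXBP1. The highest value was that of siXBP1 replicate 2, and siNC replicate 1 and siXBP1 replicate 3 shared the lowest. The means were 1014 ± 47.6 and 1041 ± 55.8 CPM (SD, n = 3 each), and the log2 fold change was 0.04 (SE 0.08, 95% interval -0.14 to 0.22).

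The HSP90 proteins mature kinases and hormone receptors among many clients. HSP90AB1 (gene ID 3326, chromosome 6, 44246194 to 44253883), the constitutive HSP90, had 1506, 1582 and 1471 CPM in siNC and 1429, 1516 and 1493 CPM in siXBP1. Its coefficient of variation over the 6 libraries was 3.38%, the smallest of the 10 genes, and its log2 fold change was -0.04 (SE 0.07, interval -0.20 to 0.13). HSP90AA1 (gene ID 3320, chromosome 14, 102080742 to 102139749), the form that stress induces further, had 1306, 1609 and 1518 CPM in siNC and 1311, 1352 and 1525 CPM in siXBP1. The lowest library was siNC replicate 1, level with siXBP1 replicate 1, and the means of 1478 ± 156 and 1396 ± 114 CPM (SD, n = 3 each) overlapped (log2 fold change -0.08, SE 0.10, interval -0.30 to 0.14). Without siNC replicate 1 and siXBP1 replicate 3, the end libraries of the first component, the estimate was -0.23 (edgeR adjusted p = 0.0946, the smallest for any of the 10 genes in 17 alternative fits), against 0.319 with the component as a covariate and at least 0.983 in the others.

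The HSP110 proteins release nucleotide from HSP70. HSPH1 (gene ID 10808, chromosome 13, 31134973 to 31162388) had 207, 238 and 229 CPM in siNC and 221, 214 and 242 CPM in siXBP1. The lowest value came from siNC replicate 1 and the highest from siXBP1 replicate 3, and the log2 fold change was 0.01 (SE 0.09, interval -0.20 to 0.21). HSPA4 (gene ID 3308, chromosome 5, 133052013 to 133106449) had 222, 260 and 248 CPM in siNC and 221, 232 and 248 CPM in siXBP1. Its estimate was -0.06 (SE 0.09, interval -0.27 to 0.15), and the siXBP1 libraries lay among or below those of siNC. It was -0.12 without siNC replicate 1, -0.014 without siNC replicate 2 and -0.16 without both end libraries.

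The J-domain proteins deliver clients to HSP70 and start its ATP cycle. DNAJB1 (gene ID 3337, chromosome 19, 14514769 to 14560391), a classical HSF1 target, had 188, 186 and 174 CPM in siNC and 200.1, 193 and 173 CPM in siXBP1. Its log2 fold change of 0.05 (SE 0.09, interval -0.16 to 0.25) was the highest of the 10. DNAJA1 (gene ID 3301, chromosome 9, 33025273 to 33039907) had 267, 287 and 285 CPM in siNC and 289, 283 and 268 CPM in siXBP1. The means were 279.5 ± 11.3 and 279.8 ± 10.4 CPM (SD, n = 3 each), the closest pair of means among the 10 genes (log2 fold change 0.0035, SE 0.08, interval -0.18 to 0.19).

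HSPB1 (gene ID 3315, chromosome 7, 76302673 to 76304292), the small heat shock protein HSP27 that holds unfolded proteins without ATP, varied most. It had 293, 204 and 257 CPM in siNC and 246, 217 and 161 CPM in siXBP1. The end libraries of the first component held the highest and the lowest value. Its coefficient of variation was 20.04%, where the median was 6.34% over the 10 genes and 8.63% over the 2286 genes that averaged 100 CPM or more, of which 3.94% varied more than HSPB1. The log2 fold change of -0.27 (SE 0.17, interval -0.65 to 0.11) was the lowest of the 10. It was 0.01 without both end libraries, a fit that cannot tell the group from the component. With the component as a covariate it was -0.18 (SE 0.06).

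The mitochondrial pair had lower values in siXBP1 without passing the test. HSPD1 (gene ID 3329, chromosome 2, 197486584 to 197500274) had 602, 651 and 610 CPM in siNC and 529, 602 and 568 CPM in siXBP1. The highest siXBP1 library (601.9 CPM) lay just below the lowest siNC library (602.5 CPM). The means were 621 ± 26.4 and 566 ± 36.7 CPM (SD, n = 3 each), and the log2 fold change was -0.13 (SE 0.09, interval -0.32 to 0.06). HSPE1 (gene ID 3336, chromosome 2, 197500379 to 197503449) had 119, 110 and 101 CPM in siNC and 95.1, 104.5 and 90.3 CPM in siXBP1. Only siXBP1 replicate 2 lay above the lowest siNC library, and the log2 fold change was -0.18 (SE 0.11, interval -0.42 to 0.05). Without both end libraries the estimates were -0.15 for HSPD1 and -0.07 for HSPE1. HSPA9, the mitochondrial HSP70 that works upstream of this pair, had 743 ± 29.8 CPM in siNC and 741 ± 27.4 CPM in siXBP1 (SD, n = 3 each; log2 fold change -0.0014, SE 0.08).

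**Figure D2:**
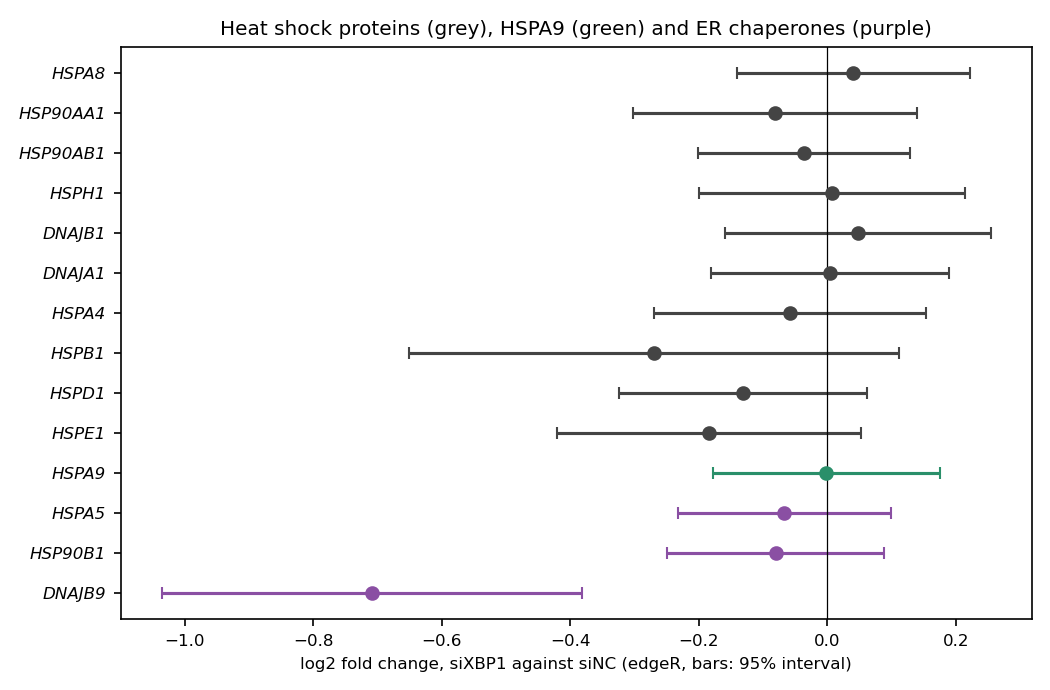
Log2 fold change of siXBP1 against siNC (horizontal axis) with its 95% interval for the 10 heat shock protein genes, for HSPA9 of mitochondria and for HSPA5, HSP90B1 and DNAJB9 of the ER. All 10 intervals in grey include 0, as do those of HSPA9, HSPA5 and HSP90B1, while that of DNAJB9 runs from -1.04 to -0.38.

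Ratios of 2 genes within a library do not depend on how libraries are scaled. Of such ratios, 5 were compared by a two-sided exact permutation test, which with 3 against 3 libraries cannot go below p = 0.1, and the groups overlapped for all of them. The log2 ratio of HSP90AA1 to HSP90AB1, the inducible over the constitutive form, was -0.21, 0.03 and 0.05 in siNC and -0.12, -0.16 and 0.03 in siXBP1 (exact p = 0.9, Benjamini-Hochberg adjusted over the ratios 1). The log2 ratio of HSPD1 to HSPE1 was 2.34, 2.57 and 2.59 in siNC and 2.47, 2.53 and 2.65 in siXBP1 (exact p = 0.7, adjusted 1). DNAJB1 to HSPA8 had means of -2.47 and -2.46 (exact p = 1, adjusted 1). HSPH1 to HSPA4 had means of -0.11 ± 0.02 and -0.05 ± 0.06 (SD, n = 3 each; exact p = 0.3, adjusted 0.75), with 2 of 3 siXBP1 libraries above every siNC library. HSPA8 to HSPA5, the cytosolic over the ER form of HSP70, had means of -2.76 ± 0.11 and -2.66 ± 0.04 (exact p = 0.3, adjusted 0.75), with 2 siNC libraries below every siXBP1 library.

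The 10 genes differed in how they followed the first component, which is a difference between libraries within both groups. Correlations with its score are descriptions over 6 libraries, which share the scaling to library totals, and the component was computed from 11528 genes that include these 10. The correlation was -0.95 for HSPH1, -0.83 for HSP90AA1 and -0.81 for HSPA4, and 0.90 for HSPB1. It was 0.65 for both DNAJB1 and HSPE1 and between -0.25 and 0.07 for HSPA8, HSP90AB1, DNAJA1 and HSPD1. Absolute values of at least 0.8 were thus reached by 4 of the 10 and by 43.5% of all genes with enough counts. Over all genes the correlation moved with the length of the gene on the chromosome, from a median of 0.75 in the fifth with the shortest spans to -0.74 in the fifth with the longest. HSPB1 and HSPE1 span 1620 and 3071 bases, and HSPA4 and HSP90AA1 span 54437 and 59008 bases. The other members lay further from the median correlation of genes with a similar span. HSPA8 (4974 bases) and HSP90AB1 (7690 bases) had 0.07 and -0.25, where genes of 68 to 9767 bases had a median of 0.75. HSPD1 (13691 bases) and DNAJA1 (14635 bases) had -0.11 and -0.05, where genes of 9768 to 22096 bases had 0.52. HSPH1 (27416 bases) had -0.95, where genes of 22097 to 43202 bases had 0.09. DNAJB1, annotated over 45623 bases, had 0.65, where genes of 43214 to 90403 bases had -0.54. The part of gene span in these differences was not tested.

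**Figure D3:**
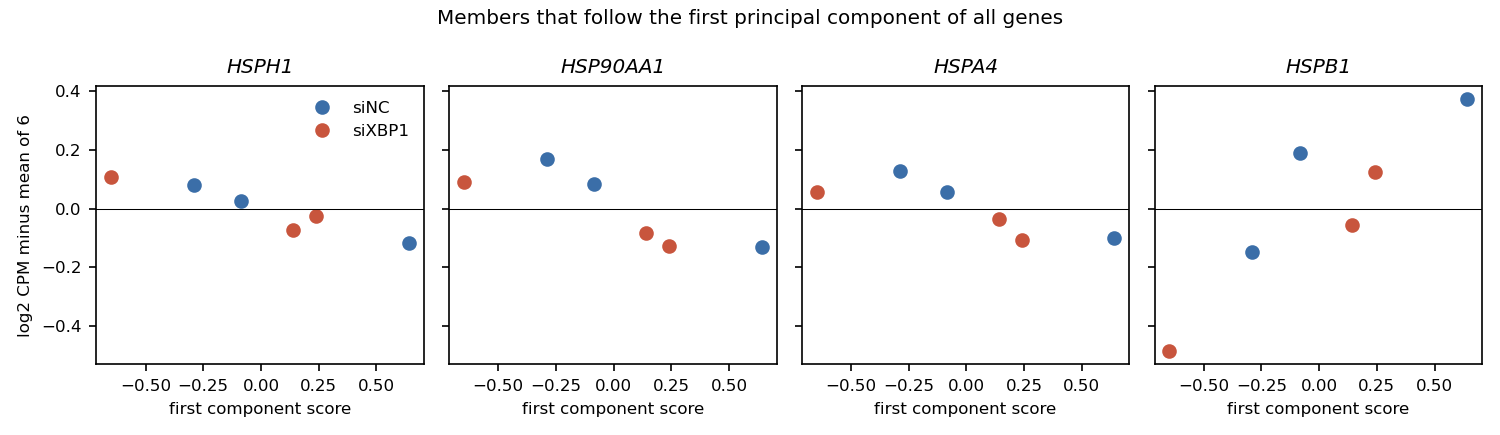
Log2 CPM minus its mean over the 6 libraries (vertical axis) against the score on the first principal component (horizontal axis, no unit) for the 4 heat shock protein genes with an absolute correlation of at least 0.8. HSPH1, HSP90AA1 and HSPA4 fall along the component and HSPB1 climbs. The end libraries are siXBP1 replicate 3 (red, score -0.649) and siNC replicate 1 (blue, score 0.641).

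With the score on this component as a covariate, edgeR called 176 genes (1.23% of those tested, 0.732% higher and 0.495% lower) and 0 of the 10. Estimates were lower for 7 of the 10 in that fit, beside 48.8% lower and 51.2% higher over all genes, and the median of the 10 was -0.07. At an unadjusted p under 0.05 the fit gave 4 of the 10, all lower, where it gave 5.58% of all genes as lower and 5.97% as higher. They were HSP90AA1 (-0.13, SE 0.05), HSPB1 (-0.18, SE 0.06), HSPD1 (-0.14, SE 0.06) and HSPE1 (-0.15, SE 0.07), with edgeR adjusted p from 0.237 to 0.36. Because the covariate was taken from the data being tested, the SEs of that fit are likely to be too small.

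Over all 6 libraries, other genes of the chaperone network outside the ER were also not called. Lists of such genes held 92 tested genes in 7 classes, and edgeR called 0 of them. At an unadjusted p under 0.05 edgeR gave 4, of which 1 was higher and 3 lower. The share over all genes was 3.61% (1.9% higher and 1.7% lower). Without both end libraries, 4 of the 92 were called and 0 of the 10 heat shock protein genes, where 4.87% of all genes were called (1.45% higher and 3.42% lower). Higher in that fit were BAG1 (0.40, edgeR adjusted p = 0.00478) and CRYAB (0.85, 0.0304), and lower were DNAJC2, a J-domain protein that binds ribosomes (-0.42, 0.00532), and the prefoldin subunit PFDN4 (-0.43, 0.0214). These were named after their values were seen, and the group cannot be told from the first component in that fit. Among other HSP70 proteins and their exchange factors, 5 estimates were higher and 6 lower (median log2 fold change -0.0044). BAG1 (0.14, SE 0.15) and BAG3 (-0.08, SE 0.11), which release clients from HSP70, had the highest CPM in that list. HSPA1A, HSPA1B and HSPA1L, the genes of inducible HSP70 and a close relative, were not analysed here, and HSPA6, another inducible HSP70, had a mean of 0.742 CPM. Of 14 J-domain proteins in another of these lists, 6 estimates were higher and 8 lower (median -0.01), with DNAJC8 at -0.02 (SE 0.10) and DNAJC21 at 0.07 (SE 0.11). Of 20 co-chaperones, 7 were higher and 13 lower (median -0.02). STIP1 (-0.05, SE 0.09) and ST13 (0.05, SE 0.08), which bridge HSP70 and HSP90, were the most counted.

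The chaperonin TRiC, which folds actin and tubulin, and prefoldin had 4 estimates higher and 12 lower (median -0.03), with CCT5 at -0.02 (SE 0.09) and CCT3 at -0.02 (SE 0.09). Of 19 other mitochondrial chaperones and proteases, 5 were higher and 14 lower (median -0.07), among them TRAP1, the mitochondrial HSP90 (-0.12, SE 0.10). HSF1 itself had 89.0 ± 9.31 CPM in siNC and 83.8 ± 8.78 CPM in siXBP1 (SD, n = 3 each; log2 fold change -0.08, SE 0.12), and its list had 3 estimates higher and 4 lower, with MAPKAPK2 at 0.02 (SE 0.10) and HSBP1 at -0.03 (SE 0.10). Small heat shock proteins other than HSPB1 had 4 higher and 1 lower (median 0.11). HSPB8, which acts with BAG3, had 0.08 (SE 0.12). HSPB7 had 162 ± 8.09 CPM in siNC and 133 ± 16.6 CPM in siXBP1 (SD, n = 3 each; -0.28, SE 0.11) and CRYAB, the lens and muscle protein alpha-B crystallin, 3.61 ± 0.509 and 5.61 ± 0.726 CPM (0.64, SE 0.19). In both genes the groups did not overlap, but edgeR's adjusted p was 0.9998. Of the 92 genes, 1 was higher and 5 were lower without overlap, where 5.01% of all genes were higher and 3.74% lower. CRYAB was singled out after its values were seen, as was AHSA2P, a transcribed pseudogene related to the HSP90 activator AHSA1, with 34.8 ± 1.497 and 26.4 ± 1.54 CPM (-0.39, SE 0.11, edgeR adjusted p = 0.9998). With the covariate, AHSA2P (edgeR adjusted p = 0.0187) and HSPB7 (0.0469) were called as lower, and without both end libraries neither was (0.0967 and 0.379). They were the only 2 of the 92 called with the covariate, where 0.732% of all genes were called as higher and 0.495% as lower.

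**Figure D4:**
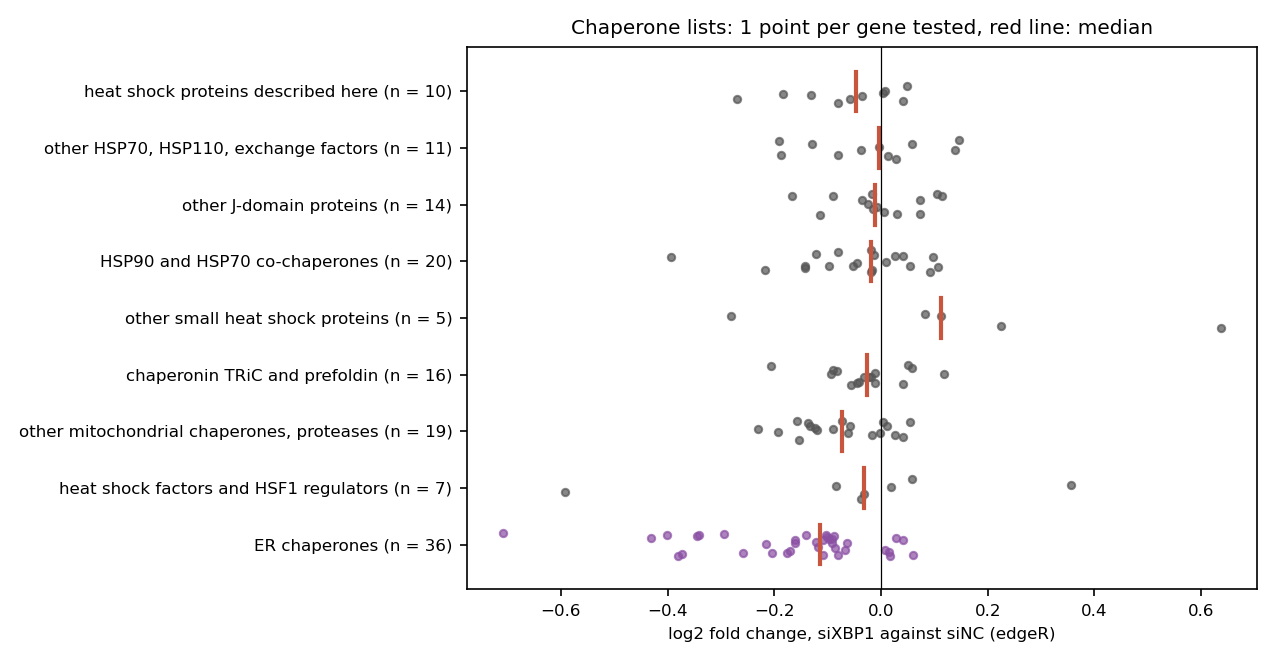
Log2 fold change of siXBP1 against siNC (horizontal axis) for every tested gene of the 10 heat shock proteins, of 7 lists of related chaperones outside the ER and of the ER chaperone list, with a red line at each median. The ER chaperones (purple) lie mostly to the left of 0, with a median of -0.11, and the heat shock proteins on both sides, with a median of -0.05.

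Chaperones of the ER had mostly lower estimates in these same libraries. Of 36 ER chaperone genes, 30 had lower and 6 higher estimates (median log2 fold change -0.11), and the groups did not overlap for 10, all lower in siXBP1, where 3.74% of all genes were lower without overlap. At an unadjusted p under 0.05 edgeR gave 8 of the 36, all lower, against 0 of the 10 heat shock protein genes and 1.7% of all genes as lower, and the threshold over all genes was passed by 0 of either. DNAJB9, the ER J-domain protein that restrains IRE1, had 78.3 ± 11.1 CPM in siNC and 47.9 ± 7.55 CPM in siXBP1 (SD, n = 3 each; -0.71, SE 0.15, edgeR adjusted p = 0.818), and DESeq2 called it (adjusted p = 0.0161). The cytosolic J-domain genes DNAJB1 and DNAJA1 had 0.05 and 0.0035. In the HSP70 family, HSPA5 had -0.07 (SE 0.07) and HSPA8 0.04 (SE 0.08). In the HSP90 family, HSP90B1 had -0.08 (SE 0.08), HSP90AA1 -0.08 and HSP90AB1 -0.04. In the HSP110 family, the ER member HYOU1, singled out after its values were seen, had 985 ± 35.5 CPM in siNC and 775 ± 33.9 CPM in siXBP1 (SD, n = 3 each; -0.35, SE 0.08, edgeR adjusted p = 0.984), beside 0.01 for HSPH1 and -0.06 for HSPA4. With the covariate, 9 of the 36 ER genes were called as lower and 0 of the 10 heat shock protein genes, where 0.495% of all genes were called as lower. Without both end libraries these counts were 7 and 0, beside 3.42% of all genes. Whether the 2 lists differ was not tested.

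Several of these genes have near-identical copies. RefSeq names 93 pseudogenes or readthrough genes after the 10 genes, and 3 had rows in the table. HSP90AB2P had 4 to 22 counts per library, and HSPE1P7 and HSP90AB4P at most 2 and 3. How reads that match several copies or overlapping genes were counted is not given in the sources used here, so the level of a gene with such copies is uncertain, while its comparison between libraries uses the same counting throughout.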

How the data were processed

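The authors deposited whole-number read counts per NCBI Gene ID, not normalized, for 6 RNA-seq libraries. Per the submitters' processing notes, STAR 2.5.2a, featureCounts 1.5.0 of Subread and the hg38 build were used. Strand setting, annotation and the treatment of shared reads were not given in the sources used here. Left out were the 2 ChIP-seq samples and a short descriptive text. Groups and replicate numbers come from sample titles, and RefSeq symbols of GRCh38.p14 were found for 18526 of 18555 rows.

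Genes passing filterByExpr were normalized with TMM and tested with edgeR 4.0.16 (quasi-likelihood, two-sided, group as the only term, R 4.3.3), with Benjamini-Hochberg adjustment over all genes tested and a threshold of 0.05. SE is the size of the log2 fold change divided by the square root of F. CPM are counts over library totals. Components used log2 CPM with 0.5 added, for genes averaging 100 counts or more. Alternatives used DESeq2 1.42.0 and limma 3.58.1 (voom) among others. The procedure was tested on simulated data with known fold changes. Same-numbered siNC and siXBP1 libraries were not treated as pairs.

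Named genes were XBP1, the 10 heat shock protein genes, HSPA5, HSP90B1, DNAJB9, HSPA9, HSF1 and, per list, up to 4 called genes or else the 2 with the highest CPM. Members and lists were chosen with earlier results of these data known. No set test was run.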

Additional observations from a re-analysis of the deposited data

How the results depend on the processing

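None of the 10 heat shock protein genes was called under any of 17 alternative fits, nor at an adjusted p under 0.01. Of 170 estimates, 158 kept their direction and 12 turned, all of HSPH1, DNAJA1, HSPA8 and HSPB1, and the cause was not tested. With upper-quartile factors the median of all genes also moved, from 0.0096 to 0.00086. HSPH1 turned with upper-quartile factors (-0.00042), with the first component as a covariate (-0.026) and without both end libraries (-0.098). DNAJA1 turned with upper-quartile factors (-0.0038) and with halved counts (-0.0020), and HSPB1 without both end libraries (0.011). With each library left out in turn, HSPH1 lay between -0.059 and 0.043, DNAJA1 between -0.034 and 0.021, and HSPA8 between -0.00032 and 0.071. HSP90AA1 ranged from -0.17 without siNC replicate 1 to -0.022 without siNC replicate 2, and HSPB1 from -0.41 without siNC replicate 2 to -0.13 without siXBP1 replicate 3. The median of the 10 stayed below 0, from -0.087 without siNC replicate 1 to -0.014 without siNC replicate 2, and 6 to 8 estimates were lower.

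The number of genes called was 0 with upper-quartile factors or at an adjusted p under 0.01, 15 with DESeq2, 176 with the covariate, 702 without both end libraries and 0 to 1 with each library left out. XBP1 was lower throughout, at -0.85 with upper-quartile factors (edgeR adjusted p = 0.0546), at -0.84 for the threshold of 0.01 (0.0331), and from -0.88 to -0.80 with each library left out. Its call ended on leaving out replicate 2 (0.175) or 3 (0.213) of siNC, or replicate 1 (0.475) or 2 (0.284) of siXBP1. The 8 related lists held 92 tested genes outside the ER and 36 ER chaperones. Called genes in them numbered 1 with DESeq2, where 0.105% of all genes were called. With the covariate they numbered 11, of which 9 were ER chaperones, where 1.23% of all genes were called. Without both end libraries they also numbered 11, of which 7 were ER chaperones, where 4.87% of all genes were called.

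With the replicate block, 1 gene was called, XBP1 at -0.84, and no call on the 10 genes changed. Same-numbered libraries correlated at 0.61, -0.38 and 0.45 in their deviations from the group means, and differently numbered ones at -0.77 to 0.67. Because the deviations of 3 libraries sum to 0 in each group, these values cannot decide whether the numbers pair the libraries. Among counts from 1 to 40, 75.8% to 80.5% were even, and halving the counts called 1 gene. Whether the spread between 3 libraries a group or the depth limits these comparisons more was not tested for single genes.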
